A study of Homo sapiens with 6 samples.

Results

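The C/EBP family genes CEBPA, CEBPB, CEBPD, CEBPE and CEBPG were followed by RNA-seq in KO52 cells in which DNA binding by C/EBP or by AP-1 proteins was blocked. The 5 genes were taken by symbol from the count tables and made up the family without its distant relative DDIT3 (CHOP). They were 5 of 60612 gene IDs, and all 5 were among the 15395 genes with enough counts to be tested. KO52 is a human acute myeloid leukaemia cell line in which both CEBPA alleles are mutated, and this genotype was shared by every library. The 6 libraries formed 3 groups of 2, which carried a doxycycline-inducible lentiviral vector that held a dominant negative C/EBP peptide (dnCEBP), a dominant negative FOS peptide (dnFOS) or no peptide (empty vector, EV). Transduced cells had been sorted for GFP. The labels give neither the time under doxycycline nor whether the replicates of a group were separate transductions, so that p-values measure the spread between these libraries, which may be technical. A counted CEBPA read was not assigned to a mutant allele, and whether reads from a vector insert entered the counts of a C/EBP gene was not tested.

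C/EBP proteins are basic leucine zipper (bZIP) factors that bind DNA as dimers with each other or with other bZIP proteins. C/EBPα starts granulocytic and monocytic differentiation from progenitors and restrains their proliferation, C/EBPε acts later in neutrophil and eosinophil maturation, C/EBPβ and C/EBPδ are induced in emergency granulopoiesis and inflammation, and C/EBPγ lacks a classical activation domain and acts through its partners, among them ATF4. In leukaemia with mutations of both CEBPA alleles, N-terminal mutations leave the short p30 isoform and C-terminal mutations disturb the bZIP domain. The dominant negative peptides pair with the bZIP domain of their targets through an acidic extension and keep the dimer off DNA, so that they act on proteins and leave the genes of the family intact.

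Libraries held between 9862994 and 27663179 counts, the dnFOS libraries being the shallowest. The limit that a count of 0 allows, 3 counts, corresponded to between 0.111 and 0.290 CPM (counts scaled to 1000000 per library, on TMM-scaled library sizes). All 9 myeloid blast markers were tested and summed to between 938 and 1000 CPM in EV, 872 and 883 CPM in dnCEBP and 788 and 818 CPM in dnFOS, and 4 of them (MPO, AZU1, CSF3R and SPI1) are also in the lists of C/EBPα targets or upstream factors. The lower dnCEBP sum was not shared by all 9 markers. MPO dropped from a mean of 216.6 CPM (EV) to 58.2 CPM (dnCEBP). PTPRC moved the other way, with 9567 and 8693 EV counts against 12697 and 10609 dnCEBP counts. Its count of 10609 came from dnCEBP replicate 2, which was shallower than both EV libraries. Of the other lineages, the T and NK cell list, mostly CD3D, ran from 146 to 154 CPM in EV, from 170 to 175 CPM in dnCEBP and from 112 to 130 CPM in dnFOS, while CD3E had between 0 and 4 counts. The B cell list ran from 16.1 to 19.5 CPM in EV, from 16.0 to 16.9 CPM in dnCEBP and from 11.3 to 14.3 CPM in dnFOS with MS4A1 and PAX5 at 0, and the erythroid list summed to between 0.870 and 3.55 CPM with HBA2 at 0. The megakaryocyte list, led by ITGA2B, ran from 183 to 195 CPM in EV, from 201 to 238 CPM in dnCEBP and from 102 to 113 CPM in dnFOS. The list for epithelial or virus producer cells summed to between 67.3 and 87.6 CPM with CDH1 at 0. RN7SL transcripts took between 7.79% and 7.98% of counts in EV and dnCEBP, and 6.14% and 4.32% in dnFOS. The part of these lists, of RN7SL and of depth in the dnFOS results was not tested. In these bulk samples, fewer cells of a type and less RNA per cell cannot be told apart.

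The family genes are small and, with the exception of CEBPG, rich in G and C (GENCODE 29, GRCh38, 1-based). CEBPA (ENSG00000245848) lies on the minus strand of chr19:33299934-33302564 as 1 exon. CEBPG (ENSG00000153879) follows on the plus strand of the same chromosome at chr19:33373330-33382686, with 2 transcripts of up to 2 exons. CEBPB (ENSG00000172216) is a 1-exon gene on the plus strand of chr20:50190734-50192689. CEBPE (ENSG00000092067) has 2 exons on the minus strand of chr14:23117304-23119616. Merged exons measured 2631 bases for CEBPA, 1956 for CEBPB, 2178 for CEBPD, 1554 for CEBPE and 4411 for CEBPG. Their GC content was 65.9%, 66.2%, 70.0%, 62.9% and 43.9% in the same order, against a median of 47.7% over the tested genes.

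Promoter windows from 250 bases before to 50 bases after a start site were read from RefSeq (GRCh38.p14) for 4 of the 5 genes, 6 windows in all, and searched on both strands for a C/EBP motif (TTGCNNAA), an AP-1 motif (TGANTCA), a CRE motif (TGACGTCA) and a C/EBP-ATF composite (TGATGNAA). Over all 35116 windows, 10.5% held the C/EBP motif, 7.71% the AP-1 motif, 1.85% the CRE motif and 3.62% the composite. Of the 6 windows, 2 held a match, 1 of CEBPE and 1 of CEBPG, and these are shown because the peptides block factors that read such motifs. Capitals mark the motif.
CEBPE, AP-1 motif, chr14:23119338-23119366, minus strand: ctgcccctcccTGAGTCAccccaagggga
CEBPG, C/EBP-ATF motif, chr19:33374060-33374089, plus strand: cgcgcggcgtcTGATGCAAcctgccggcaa
The CEBPE match began 100 bases before the RefSeq start site and fell in the untranslated part of its GENCODE transcript, which starts further upstream. The CEBPG match began 42 bases before the second RefSeq start site and fell in an intron of a GENCODE transcript. A match is a run of letters and not a measured site. The windows of CEBPA and CEBPB held none of the 4 motifs. The 220 bases upstream of the GENCODE start of CEBPA are shown because this was the gene with the highest level and because its divergent transcript, CEBPA-DT, starts 292 bases from it.
CEBPA, chr19:33302565-33302784, minus strand: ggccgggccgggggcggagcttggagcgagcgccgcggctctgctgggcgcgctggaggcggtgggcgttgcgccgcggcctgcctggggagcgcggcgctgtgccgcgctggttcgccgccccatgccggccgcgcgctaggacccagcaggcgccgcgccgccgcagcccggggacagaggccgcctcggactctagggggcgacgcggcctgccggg
This stretch was 82.3% G and C.

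CEBPA was by far the most abundant family transcript in KO52. Per kb of merged exons, the scale used to compare genes, its level in EV was 147.1 ± 3.02 CPM per kb (SD, n = 2), above that of 98.7% of tested genes. CEBPG followed with 11.5 ± 0.948 CPM per kb, CEBPB with 4.86 ± 0.442, CEBPE with 2.67 ± 0.234 and CEBPD with 0.230 ± 0.0284 CPM per kb, which placed them above 83.5%, 63.4%, 48.3% and 8.76% of tested genes. The ranges of neighbouring genes in this order did not overlap in EV, and the same order held in each of the 6 libraries. The plot of levels by library shows this order and the much wider spread of CEBPD, which had between 1 and 13 counts in a library.

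**Figure D1:**
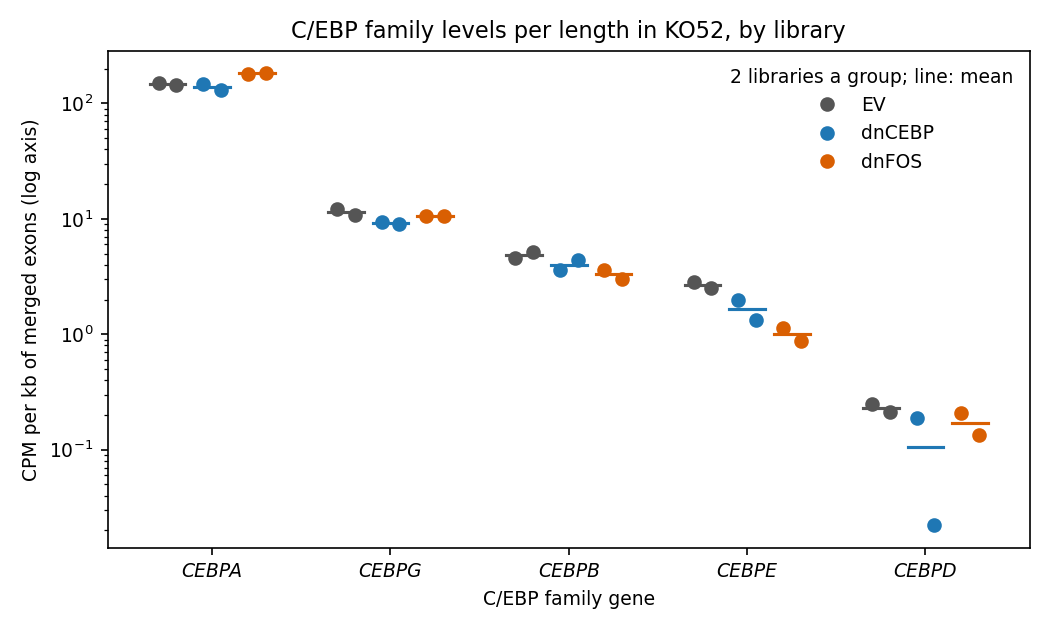
Level of each C/EBP gene in CPM per kb of merged exons (log axis) in each library of EV, dnCEBP and dnFOS, with a line at the mean of 2 libraries. CEBPA sits between 131 and 182.2 CPM per kb, above CEBPG, CEBPB, CEBPE and CEBPD in every library.

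The comparison of dnCEBP with EV asks how the family's transcripts respond when the DNA binding of its proteins is blocked. No member passed the edgeR test at an adjusted p of 0.05, where 1.07% of tested genes did (0.624% higher and 0.448% lower in dnCEBP). At an unadjusted p under 0.05 in edgeR, 2 members did, CEBPE and CEBPG, at ranks 1070 and 470 by p among 15395 tested genes. About 1836 of the 15395 tested genes passed this looser threshold, since the gene at that rank, OSBPL5, had an unadjusted p of 0.05 in edgeR. DESeq2 and limma-voom also called 0 members, although DESeq2 gave no adjusted p for CEBPD. In 4 of the 5 genes, CEBPB, CEBPD, CEBPE and CEBPG, both dnCEBP libraries lay below both EV libraries, a pattern that 20.9% of tested genes had. No member had both dnCEBP libraries above EV, which 21.9% of tested genes had.

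The comparison of dnFOS with EV asks the same when AP-1 proteins are blocked. CEBPA rose and CEBPE fell past the test, so that 2 of 5 members were called where 15.0% of tested genes were (7.24% higher and 7.76% lower in dnFOS). CEBPB, CEBPD, CEBPE and CEBPG had both dnFOS libraries below both EV libraries, as did 28.4% of tested genes, and CEBPA had both above, as did 28.3%. For CEBPD and CEBPG this rests on the TMM scaling. The nearest dnFOS and EV libraries of CEBPD were at 0.4558 and 0.4578 CPM, on 7 and 10 counts. Those of CEBPG were at 46.7 and 47.7 CPM. Set directly against dnCEBP, only CEBPA of the 5 members passed the test, being higher in dnFOS, where 14.7% of tested genes were called (6.83% higher and 7.84% lower). The comparisons with EV share the same 2 EV libraries.

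**Figure D2:**
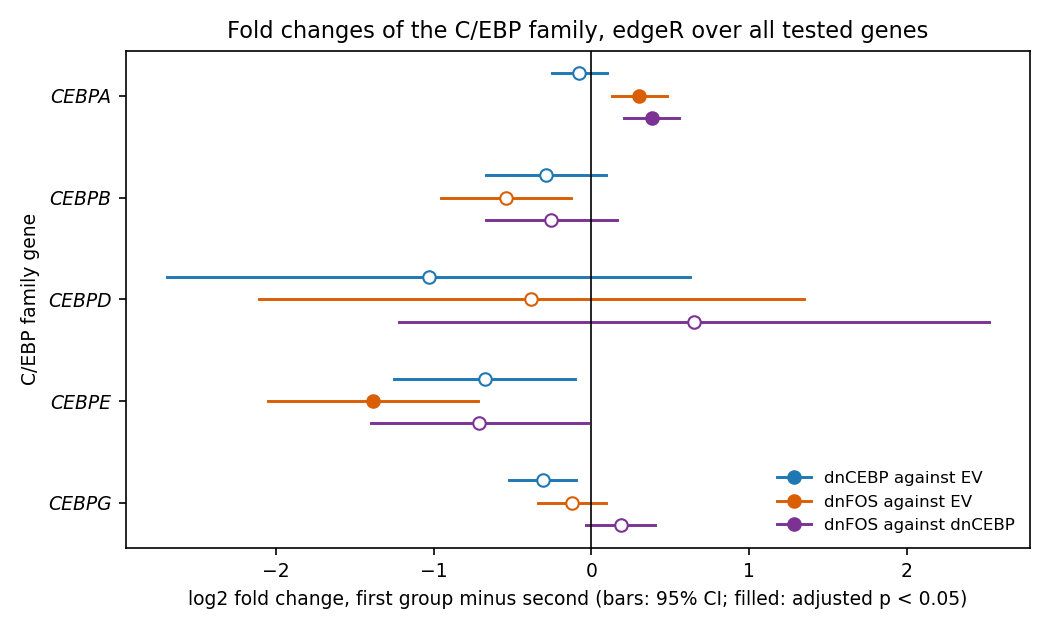
Log2 fold change of each C/EBP gene in the 3 comparisons, with the 95% confidence interval as a bar and filled points for an adjusted p under 0.05. CEBPA lies at 0.30 and 0.38 in the comparisons of dnFOS with EV and with dnCEBP, CEBPE at -1.39 in dnFOS against EV, and the intervals of CEBPD are the widest.

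CEBPA, the founding member and the gene mutated in these cells, was measured at 392.7 and 381.5 CPM in the EV libraries, 389.2 and 344.6 CPM with dnCEBP, and 476.8 and 479.3 CPM with dnFOS. Both dnFOS libraries lay above the other 4, while the dnCEBP and EV ranges overlapped. The difference of dnCEBP from EV was -0.08 ± 0.0849 on the log2 scale (SE, adjusted p = 0.787), with a 95% interval from -0.25 to 0.10. In dnFOS, CEBPA was 1.23-fold higher than in EV (log2 0.30 ± 0.0851, adjusted p = 0.0145) and 1.30-fold higher than in dnCEBP (log2 0.38 ± 0.0852, adjusted p = 0.00232). The call against EV was lost without EV replicate 1 (adjusted p = 0.0966), EV replicate 2 (0.140) or dnFOS replicate 2 (0.0595), although the log2 difference stayed between 0.27 and 0.33. The call against dnCEBP was lost without dnCEBP replicate 2 (log2 0.30, adjusted p = 0.0573).

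CEBPE, the factor of late granulocyte maturation, showed the largest called difference in the family. It was at 4.41 and 3.89 CPM under EV, at 3.07 and 2.08 CPM under dnCEBP, and at 1.76 and 1.35 CPM under dnFOS, on between 14 and 105 counts. The 3 groups did not overlap, with dnCEBP between EV and dnFOS. In dnFOS it had 0.382 of the EV level (log2 -1.39 ± 0.326, 95% interval -2.05 to -0.72, adjusted p = 0.00396). The call held without each library in turn, with adjusted p up to 0.0496 without dnFOS replicate 2. In dnCEBP the difference was -0.67 ± 0.279 (adjusted p = 0.320), and dnFOS differed from dnCEBP by -0.71 ± 0.338 (adjusted p = 0.167), so that neither step passed the test. The dnCEBP against EV difference was -0.43 without dnCEBP replicate 2, and the dnFOS against dnCEBP difference was -0.39 without dnCEBP replicate 1. The CEBPA to CEBPE ratio of levels per kb was 52.7 and 57.9 under EV, 74.8 and 98.1 under dnCEBP, and 160 and 209 under dnFOS.

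CEBPB, an inducible member, was at 8.89 and 10.1 CPM under EV, 7.03 and 8.59 CPM under dnCEBP, and 7.03 and 5.90 CPM under dnFOS. Both peptide groups lay below EV and overlapped each other. The log2 differences were -0.29 ± 0.185 in dnCEBP (adjusted p = 0.581) and -0.54 ± 0.201 in dnFOS (adjusted p = 0.0666), with a 95% interval from -0.95 to -0.13 for the latter. The gene overlaps the antisense gene CEBPB-AS1, which had between 4 and 8 counts. As the use of strand in counting was not given in the sources used here, reads of the pair cannot be told apart.

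CEBPD (ENSG00000221869), the other inducible member and a 1-exon gene on the minus strand of chr8:47736909-47739086, was near the limit of detection. Its counts were 13 and 10 under EV, 11 and 1 under dnCEBP, and 7 and 3 under dnFOS, which gave 0.545 and 0.458, 0.407 and 0.0483, and 0.456 and 0.290 CPM. The log2 difference of dnCEBP from EV was -1.03, with a 95% interval from -2.69 to 0.62, and rested on dnCEBP replicate 2, without which it was -0.30. In dnFOS the interval ran from -2.11 to 1.35. A difference between groups was not detectable at this depth.

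CEBPG, the widely expressed partner of other bZIP proteins, was at 53.6 and 47.7 CPM under EV, 41.7 and 40.0 CPM under dnCEBP, and 46.2 and 46.7 CPM under dnFOS. The dnCEBP libraries were the lowest of the 6. The place of dnFOS between them and EV rests on the TMM scaling. The difference of dnCEBP from EV, -0.31 ± 0.103 with a 95% interval from -0.52 to -0.10, gave an unadjusted p of 0.00532 in edgeR and an adjusted p of 0.174. In dnFOS it was -0.12 ± 0.105 (adjusted p = 0.481, 95% interval -0.34 to 0.09).

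CEBPA made up a larger share of the family in both peptide groups than in EV. Its share of the summed level per kb was 88.3% and 88.6% under EV, 90.7% and 89.8% under dnCEBP, and 92.2% and 92.6% under dnFOS. The 3 groups did not overlap, but 2 against 2 libraries allow no exact two-sided permutation p below 0.333, and no test was made. The share of CEBPG was 6.89% ± 0.413 under EV, 6.01% ± 0.305 under dnCEBP and 5.36% ± 0.0354 under dnFOS (SD, n = 2), and that of CEBPB 2.93% ± 0.332, 2.61% ± 0.572 and 1.68% ± 0.209. CEBPE made up 1.60% ± 0.104 of the family under EV, 1.06% ± 0.209 under dnCEBP and 0.509% ± 0.0938 under dnFOS. The family summed to 169 and 163.7 CPM per kb under EV, 163.1 and 145.8 under dnCEBP, and 196.6 and 196.8 under dnFOS, so that the sum followed CEBPA.

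**Figure D3:**
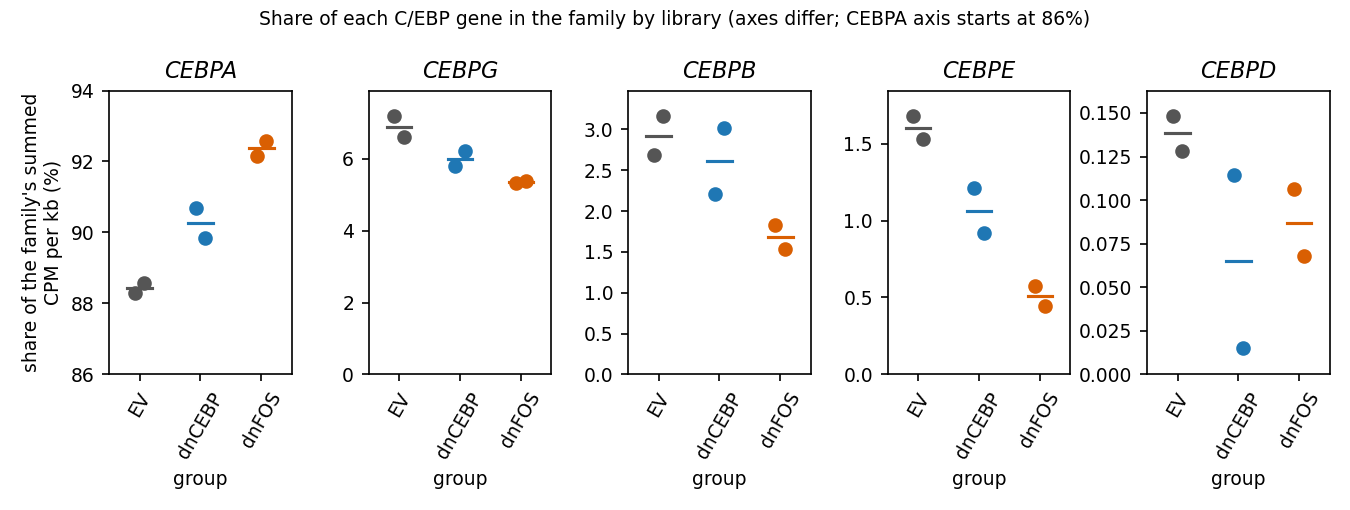
Share of each C/EBP gene in the family's summed CPM per kb (%) in each library, with a line at the group mean. The axes differ and that of CEBPA does not start at 0. CEBPA averages 88.44% in EV and 92.37% in dnFOS, and CEBPE 1.603% and 0.509%.

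Fold changes in these libraries moved with base composition, which bears on a family of GC-rich genes. Across 15222 genes with a known GC content, the log2 fold change and GC content had a Pearson r of -0.214 in dnCEBP against EV, -0.303 in dnFOS against EV and -0.146 in dnFOS against dnCEBP. These are descriptions across genes, which are not independent replicates. CEBPD, CEBPB, CEBPA and CEBPE had a higher GC content than 99.8%, 98.4%, 98.2% and 94.3% of tested genes, and CEBPG than 35.0%. When a smooth trend on GC content and length was removed from each library, the rise of CEBPA in dnFOS became 0.61 (adjusted p = 5.25e-07, from 5.25e-07 to 1 over the 17 alternatives) and its difference in dnCEBP turned from -0.08 to 0.13 (adjusted p = 0.474). CEBPE stayed lower in dnFOS at -1.13 (adjusted p = 0.0145, from 0.000988 to 0.239 over 17 alternatives), and CEBPB came to -0.24. CEBPG, whose GC content is lower, moved from -0.31 to -0.35 in dnCEBP and was then called (adjusted p = 0.0350, from 0.0350 to 1 over its alternatives). These ranges leave out the edgeR fit with a replicate block. That fit gave adjusted p of 0.000661 for CEBPE and 0.00245 for CEBPA in dnFOS, and 0.0591 for CEBPG in dnCEBP. Directions of CEBPE, CEBPB, CEBPD and CEBPG against EV were the same with and without the trend. Whether the trend is technical was not tested.

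**Figure D4:**
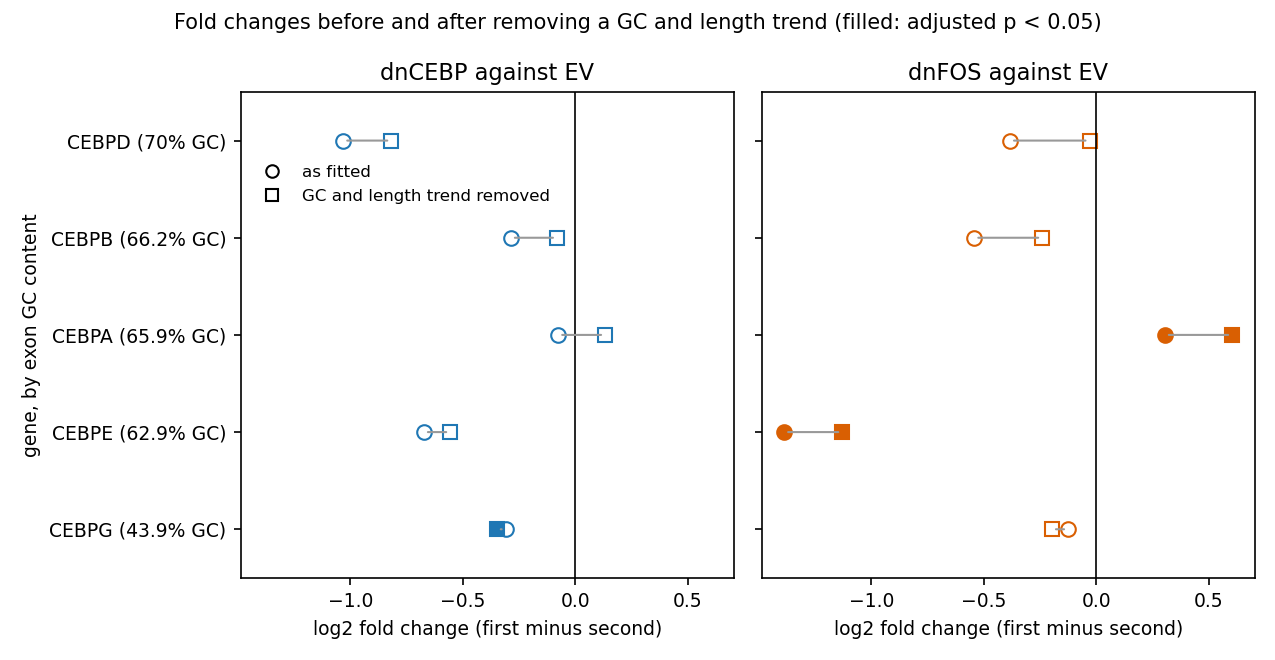
Log2 fold change of each gene against EV as fitted (circles) and with a GC and length trend removed (squares), ordered by exon GC content and filled for an adjusted p under 0.05. CEBPA moves from 0.30 to 0.61 in dnFOS, CEBPE stays called in dnFOS at -1.13, and CEBPG is called in dnCEBP only after removal, at -0.35.

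The genes next to the family members on the chromosome mostly did not pass the test. CEBPA-DT, the divergent transcript of CEBPA, was at 5.26 ± 0.263 CPM under EV, 5.06 ± 1.22 under dnCEBP and 6.27 ± 0.801 under dnFOS (log2 0.26 ± 0.231, adjusted p = 0.495, for dnFOS against EV). LRP3, on the other side of CEBPA, had -0.90 ± 0.247 in dnCEBP (adjusted p = 0.0786). PRKDC, the DNA-dependent protein kinase gene 34021 bases from CEBPD, was the only neighbour called, with 443.2 ± 6.54 CPM in dnFOS against 366.8 ± 5.72 in EV (log2 0.27 ± 0.0822, adjusted p = 0.0229). SPIDR beside CEBPD, AL161937.2 and SMIM25 around CEBPB, C14orf119 and SLC7A8 around CEBPE, and AC008738.2 and PEPD around CEBPG had adjusted p between 0.0902 and 0.952 against EV. SLC7A8, an amino acid transporter gene 5678 bases from CEBPE, had a log2 difference of 0.59 in dnFOS, opposite in sign to that of CEBPE.

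The genes whose log2 CPM followed each member most closely over the 6 libraries were taken from up to 3678 genes with at least 5 CPM and an SD of at least 0.2. For CEBPA these were SLC16A9 (Pearson r = 0.997), FUT7 (0.994) and CBWD1 (0.992), all highest in dnFOS. For CEBPE they were DHX37 (0.997), the cystatin gene CST7 (0.997) and TMEM63B (0.992). CST7 was at 152 ± 10.1 CPM under EV, 121.5 ± 12.0 under dnCEBP and 96.9 ± 7.50 under dnFOS. For CEBPB they were CAMTA2 (0.996), SLC35B1 (0.992) and VDR (0.967), the vitamin D receptor gene. For CEBPG they were CCDC86 (0.982), P3H4 (0.960) and MPO (0.958), and for CEBPD OSBPL5 (0.993), ARHGAP4 (0.992) and TMEM115 (0.990). With 6 libraries in 3 groups that differ in depth, these values describe likeness of pattern only. Among the members themselves, r was highest between CEBPB and CEBPE (0.776) and lowest between CEBPA and CEBPB (-0.732).

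Genes listed as partners of C/EBP proteins, or as acting on them or their genes, were described from 3 lists. Of 14 tested bZIP partners of 16, none was called in dnCEBP, beside 1.07% of all tested genes (median log2 -0.14, against -0.002 over all tested genes). For 14 genes, 0 calls lie near that share. At an unadjusted p under 0.05, which about 1836 of 15395 tested genes had, the count in edgeR was 0 as well. DESeq2 and limma-voom called 0. In dnFOS 6 were called, 5 lower and 1 higher, beside 15.0% of all tested genes (median -0.007, against 0.004 over all tested genes). DDIT3, which dimerizes with C/EBP proteins and keeps them from their usual sites, was at 73.0 and 64.3 CPM under EV, 55.7 and 66.6 under dnCEBP, and 24.6 and 22.7 under dnFOS. Both dnFOS libraries were far below the other 4 (log2 -1.53 ± 0.115, adjusted p = 1.16e-10), while dnCEBP overlapped EV (-0.17 ± 0.104, adjusted p = 0.561). ATF4, the stress response factor and partner of C/EBPγ, fell to 287.9 ± 15.8 CPM in dnFOS from 424.6 ± 16.0 in EV (log2 -0.56, adjusted p = 3.5e-05) and was at 417.4 ± 2.80 in dnCEBP. ATF3 (log2 -1.49), JUNB (-0.71) and BATF (-0.53) also fell in dnFOS, and CREBZF, named after its values were seen as the 1 partner that was higher, rose (0.36), its dnFOS libraries being at 57.1 and 81.1 CPM. Leaving out EV replicate 1 lowered the 6 calls to 3, leaving out EV replicate 2 or either dnFOS replicate to 4, and removal of the GC and length trend to 3. DESeq2 called 4 and limma-voom 3.

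Of the 6 genes listed under C/EBP protein turnover and translation, all tested, 2 fell in each peptide group (median log2 0.01 in dnCEBP and -0.13 in dnFOS). Of all tested genes, 1.07% were called in dnCEBP and 15.0% in dnFOS. TRIB3, a pseudokinase gene listed for its Tribbles family, was at 45.6 and 48.5 CPM under EV, 26.1 and 24.1 under dnCEBP, and 19.5 and 22.6 under dnFOS. Whether TRIB3 acts on C/EBP proteins was not tested. No library of either peptide reached the EV range (log2 -0.90 ± 0.116 in dnCEBP, adjusted p = 4.75e-05, and -1.17 ± 0.123 in dnFOS, adjusted p = 1.02e-07). CALR, which encodes calreticulin, a protein known to bind CEBPA and CEBPB mRNA, fell by 0.37 in dnCEBP and by 0.27 in dnFOS on the log2 scale. TRIB1 and TRIB2, which direct C/EBPα protein to degradation, were not called against EV. TRIB1 was at 1.38 ± 0.116 CPM under EV, 1.59 ± 0.00129 under dnCEBP and 0.518 ± 0.0879 under dnFOS (adjusted p = 0.0662), and TRIB2 at 9.74 ± 1.25, 13.9 ± 0.0339 and 11.2 ± 0.125 CPM (adjusted p = 0.134 in dnCEBP and 0.473 in dnFOS). Leaving out any EV or dnCEBP library brought the dnCEBP count to 1, and leaving out any EV or dnFOS library did so for dnFOS, as did scaling by library totals alone or removal of the GC and length trend.

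Of 18 tested factors listed as upstream of C/EBP genes (20 listed), 2 were called in dnCEBP, both lower, and 3 in dnFOS, 2 higher and 1 lower. Of all tested genes 1.07% and 15.0% were called (median log2 of the list 0.02 and -0.03). The dnFOS count was near that background share. A listed factor can also be a target, as the paper states that wild-type C/EBPα represses SOX4. Whether the 2 called in dnCEBP are also targets of C/EBP proteins was not tested. MYC, which represses CEBPA in proliferating progenitors, was at 232.7 and 215.2 CPM under EV, 149.3 and 130.5 under dnCEBP, and 216.1 and 201.7 under dnFOS, so that only dnCEBP passed the test (log2 -0.68 ± 0.088, adjusted p = 4.76e-05). GFI1, a repressor that acts with C/EBP proteins in granulopoiesis, fell by 0.50 on the log2 scale in dnCEBP (adjusted p = 0.00926). RUNX1, which binds a CEBPA enhancer, rose in dnFOS with its partner CBFB (log2 0.51 and 0.54), although the dnFOS libraries of RUNX1 were far apart at 85.5 and 115.1 CPM against 65.2 and 75.2 CPM in EV. RUNX1 was at 60.0 and 57.6 CPM in dnCEBP (adjusted p = 0.352). GATA2 fell by 0.26 in dnFOS (adjusted p = 0.0493). SPI1, which encodes PU.1, was at 27.0 and 22.8 CPM under EV, 19.0 and 11.6 under dnCEBP and 19.1 and 15.9 under dnFOS, with no overlap with EV and with adjusted p of 0.0671 and 0.0733. Leaving out dnFOS replicate 2 brought the dnFOS count to 0, and leaving out dnFOS replicate 1 or either dnCEBP replicate brought it to 5. In dnCEBP it was 1 without either EV replicate or dnCEBP replicate 2, and 4 with the GC and length trend removed.

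Of 12 tested C/EBPα targets of the granulocyte-monocyte progenitor of 14 listed, 4 were called in dnCEBP, all lower, where 1.07% of tested genes were called (median log2 -1.11, against -0.002 over all tested genes). MPO, the myeloperoxidase gene, was at 239.1 and 194 CPM under EV, 63.5 and 53.0 under dnCEBP, and 152.8 and 140 under dnFOS. The 3 groups were apart, with dnCEBP the lowest (log2 -1.89 ± 0.102, adjusted p = 5.03e-13, and -0.56 ± 0.0993 in dnFOS, adjusted p = 0.000273). RNASE2 (-1.47), CTSG (-1.26) and CSF3R (-0.50), the last encoding the G-CSF receptor, also fell in dnCEBP, and the other 8 tested targets were not called, ITGAM having a log2 difference of 0.43. The count of 4 was 1 without dnCEBP replicate 2, 2 without EV replicate 1 and 6 without either dnFOS replicate. In dnFOS 8 were called by edgeR, 7 lower and 1 higher, 4 by DESeq2 and 8 by limma-voom, where edgeR called 15.0% of tested genes (median -0.74 with low-count genes as fitted or at their ratio or bound). CTSG (-1.07) and RNASE2 (-0.98) fell as in dnCEBP, and the integrin gene ITGAM, named after its values were seen as the 1 gene that was higher, rose by 0.91. RNASE3 had 43 and 38 counts in EV and 0 in both dnFOS libraries, at least 7.60-fold lower against a floor of 3 counts per library. From summed counts, PRTN3 was 20.3-fold lower (95% counting interval 3.41 to 822) and AZU1 10.5-fold lower (3.95 to 39.7) in dnFOS. RNASE3, PRTN3 and AZU1 passed the low-count filter through their EV libraries, which favours a fall in both comparisons. PRTN3 had 14 and 22 counts in EV and AZU1 34 and 41. In dnCEBP, RNASE3 had 9 and 11 counts, PRTN3 9 and 1, and AZU1 12 and 7. These genes are among the 7 lower calls in dnFOS and pull the medians of both comparisons down.

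The targets of the less abundant members were described in the same way. Of 18 genes of later granules known as C/EBPε targets, 6 had enough counts to be tested, and MMP8, OLFM4, PGLYRP1, CRISP3 and S100A12 had 0 counts in every library. In dnCEBP 0 were called by edgeR, DESeq2 or limma-voom, where edgeR called 1.07% of tested genes (median log2 -0.49, against -0.002 over all tested genes). For 6 genes, 0 calls lie near that share. None of the 6 had an unadjusted p under 0.05 in edgeR, which about 1836 of 15395 tested genes had. In dnFOS 2 were called lower, beside 7.76% of all tested genes (median -1.52), LTF at a ratio of 4.74 (95% counting interval 2.16 to 12.3) and MMP9 at 5.06 (2.18 to 14.4) between EV and dnFOS, from 3 and 4 and from 1 and 5 dnFOS counts. This count was 0 without EV replicate 2 or dnFOS replicate 1, and 1 without EV replicate 1 or dnFOS replicate 2, under library totals alone, or with the GC and length trend removed. DESeq2 called 0 and limma-voom 1. The low-count filter was passed by CAMP, which was not called, through its EV libraries (28 and 22 counts), and CAMP enters both medians. Of 7 tested inflammatory targets of C/EBPβ and C/EBPδ of 13 listed, 4 fell in dnFOS, beside 7.76% of all tested genes (median -1.01), and 4 were also called without each library in turn. The chemokine gene CXCL8 was at 249.3 and 261.5 CPM under EV, 291.6 and 282.7 under dnCEBP, and 46.6 and 51.9 under dnFOS (log2 -2.38 ± 0.0916 in dnFOS, adjusted p = 1.27e-17), and CCL3 (-2.00), PTGS2 (-1.03) and CCL2 (-1.01) fell as well. In dnCEBP 1 was called, TNF, which was higher by 0.89, beside 1.07% of all tested genes called (median of the list 0.17). TNF was not called without EV replicate 2 or either dnCEBP replicate, under library totals alone, or by DESeq2.

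Of 13 tested amino acid response genes controlled by ATF4 with C/EBPγ, from a list of 14, 9 fell in dnFOS and 1 in dnCEBP, beside 7.76% and 0.448% of all tested genes (median log2 -0.39 and -0.12). SLC3A2, the heavy chain of several amino acid transporters, was at 174.9 and 159 CPM under EV, 140.2 and 137.1 under dnCEBP, and 85.9 and 71.9 under dnFOS (log2 -1.08 ± 0.0926 in dnFOS, adjusted p = 1.46e-09). CHAC1 (-1.68), DDIT4 (-0.99), SESN2 (-0.91) and VLDLR (-0.77) also fell in dnFOS, CHAC1 being at 6.13 and 2.70 CPM in its EV libraries. PHGDH, the first enzyme of serine synthesis, was the gene called in dnCEBP (log2 -0.37, adjusted p = 0.0329), a call that was lost without either EV replicate or dnCEBP replicate 2, and in DESeq2. Leaving out EV replicate 1 gave 6 calls in dnFOS, and removal of the GC and length trend gave 10.

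**Figure D5:**
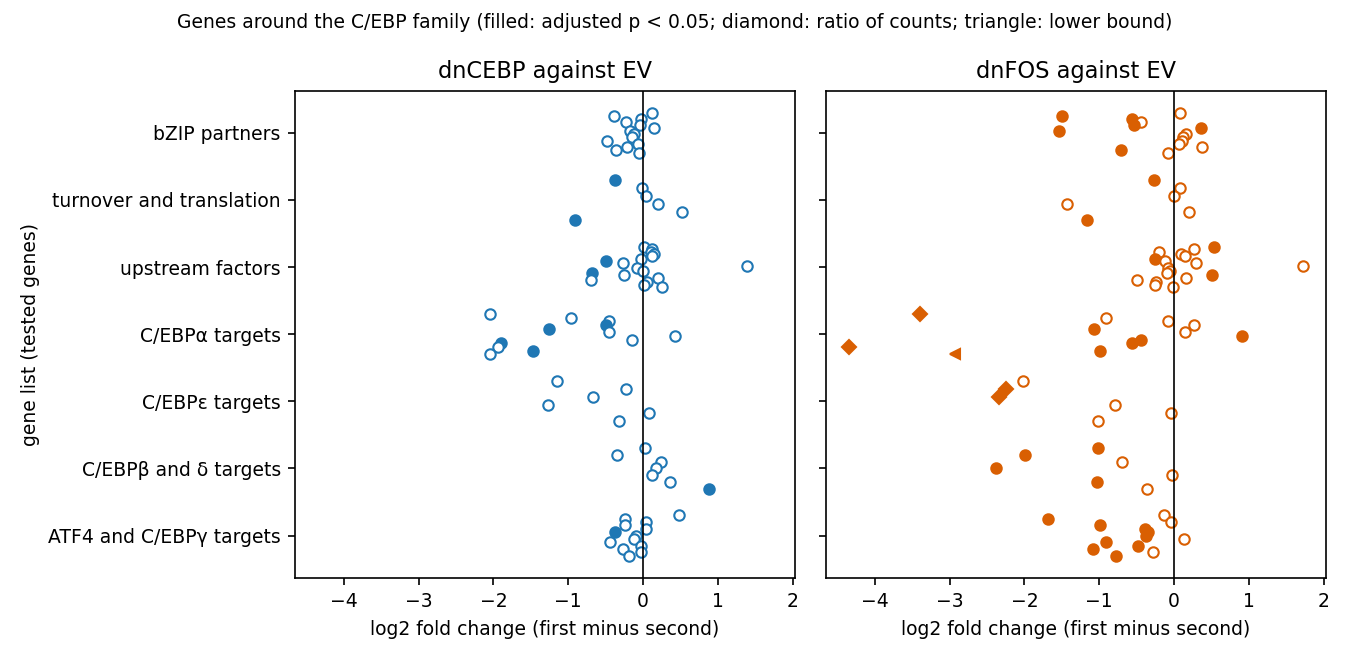
Log2 fold change of every tested gene of the 7 lists against EV, in dnCEBP and in dnFOS, filled for an adjusted p under 0.05. Diamonds are ratios of summed counts for genes with 3 or fewer counts in a dnFOS library, and the triangle is the bound of RNASE3. The called C/EBPα targets lie below 0 in dnCEBP, and 9 of 13 amino acid response genes are called below 0 in dnFOS.

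With scaling by library totals alone, the median of all tested genes lay at 0.10 for dnFOS against EV and at 0.15 for dnFOS against dnCEBP on the log2 scale, where TMM factors gave 0.004 and 0.02. Under library totals the calls of CEBPA and CEBPE in dnFOS against EV were kept (log2 0.40 and -1.29). These values were tested against 0 and still contain the shift of 0.10. With the GC and length trend removed, the upstream factors had a median of 0.05 in dnFOS.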

How the data were processed

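Paired-end RNA-seq had been made from ribosome-depleted total RNA for 6 KO52 libraries, 2 per group, with groups and replicate numbers taken from the sample titles. The authors deposited raw counts per gene, whole numbers without normalization, 1 table per library. The submitters' processing notes name Trimmomatic, HISAT2, featureCounts of Subread and hg38. Their settings, the use of strand and the treatment of reads matching several genes are not given in the sources used here. Gene IDs were matched to GENCODE 29 (58394 of 60612).

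Genes passing filterByExpr at a minimum count of 10 (15395) were fitted in edgeR 4.0.16 (R 4.3.3) with TMM factors, a mean per group over all 6 libraries and the robust quasi-likelihood F-test, two-sided. P-values were adjusted by Benjamini-Hochberg over all tested genes and called under 0.05. The common biological coefficient of variation was 0.0961 with 3 residual degrees of freedom. SE is the size of the log2 fold change over the root of F. CPM use TMM-scaled library sizes, log2 CPM a prior count of 2, and levels per length the merged exons. Counts of replicates differed by more than sampling noise (chi-square per degree of freedom 7.55, 8.46 and 14.2). Intervals and floors from counts cover counting error only. Alternatives were DESeq2 1.42.0, limma-voom (limma 3.58.1), other scalings and filters, a replicate block, a test against a 1.5-fold change, a spline trend on GC content and length (4 degrees of freedom), each library left out, and, chosen after seeing the data, thinning to the shallowest library. The main edgeR fit, DESeq2, limma-voom and the removal of the GC trend were tested on simulated data. The other alternatives were not. Named genes were the members, up to 5 called genes by size from each list and comparison with EV, DDIT3, ATF4, RUNX1, SPI1, TRIB1, TRIB2 and MPO, the 3 genes most like each member, and tested neighbours. Further genes, given at 0, as markers or as the gene called in the other direction, were named after their values were seen. The members and lists were chosen with earlier results of these data known. No test of a list as a set was made.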

Additional observations from a re-analysis of the deposited data

How the results depend on the processing

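Of 267 alternative values of the members' fold changes, 254 kept their direction and their side of the threshold, 7 lost a call, 3 gained one and 3 changed sign. DESeq2 gave no adjusted p for CEBPD in any comparison, and these values were counted as not called. CEBPA in dnCEBP against EV changed sign with the GC and length trend removed (0.13) and without dnCEBP replicate 2. With 1 library left out it ran from -0.168 to 0.00756. CEBPD in dnFOS against dnCEBP changed sign without dnCEBP replicate 2 and ran from -0.0844 to 2.83 with 1 library left out. Members called were 1 in dnCEBP with the GC and length trend removed, 2 in dnFOS against dnCEBP under library totals alone (CEBPG added, log2 0.31, adjusted p = 0.0419, while the median of all tested genes moved from 0.02 to 0.15), and 0 in dnFOS against EV and against dnCEBP when tested against a 1.5-fold change. Leaving out 1 library gave 0 members in dnCEBP against EV, 1 to 2 in dnFOS against EV and 0 to 1 in dnFOS against dnCEBP. Where this left a group with 1 library, that library was assumed to vary like the others.

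Genes called in dnCEBP against EV, 165 as fitted, were 255 without the low-count filter, 297 with only the 4 libraries compared, 267 with the GC and length trend removed, 6 against a 1.5-fold change, and 33 to 314 with 1 library left out. In dnFOS against EV (2309) they were 67 against a 1.5-fold change and 972 to 2426 with 1 library left out, and in dnFOS against dnCEBP (2259) 153 and 1182 to 2262. The difference between replicates 1 and 2 of a group correlated across genes with that of another group at 0.0174 to 0.0879. The labels do not say whether same-numbered libraries were made together, and these correlations cannot decide it. With a replicate block, 488 genes were called in dnCEBP against EV, CEBPB was called in dnFOS against EV (log2 -0.53, adjusted p = 0.0417), and no other member's call changed. The mean share of CEBPA was 88.0% in EV and 92.0% in dnFOS over the longest coding transcript, and 85.7%, 87.7% and 89.7% in EV, dnCEBP and dnFOS without division by length. Where a value moved, the cause was not tested. Depth limits CEBPD most, with up to 13 counts a library, and then CEBPE in dnFOS.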

Other observations

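CEBPZ carries the C/EBP name without a bZIP domain, and its values were looked up after the others had been seen. It had between 1062 and 2293 counts in a library and did not pass the edgeR test in dnCEBP (log2 0.005, adjusted p = 0.989) or in dnFOS (0.13, adjusted p = 0.352) against EV. CEBPZOS, the gene that starts opposite to it, was counted 466 and 421 times under EV, 656 and 404 times under dnCEBP, and 450 and 421 times in the shallower dnFOS libraries. Its difference in dnFOS against EV was 0.84 ± 0.145 on the log2 scale (SE, adjusted p = 0.000207), and in dnCEBP 0.18 ± 0.143 (adjusted p = 0.676).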
